A study of Bos taurus with 12 samples.

Results

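The anaphase-promoting complex, the mitotic checkpoint proteins that restrain it and their relatives were followed in blastomeres of 2-cell cattle embryos that were sorted into classes by how the sister blastomere developed. The group held 10 genes: the activators FZR1 and CDC20, the subunits ANAPC4, ANAPC5, CDC16 and CDC27, and the checkpoint or checkpoint-related genes MAD2L1, MAD2L2, BUB1 and BUB1B. All probes whose annotated symbol was one of these were taken, which gave 19 of the 43793 probes tested, for 10 of 15216 genes with a symbol. MAD2L2 had 7 probes, CDC27 had 3, ANAPC5 had 2 and the other 7 genes had 1 each. The genes were selected on the averaged log ratios of 1 comparison (BL against 2CB), in which MAD2L2, FZR1 and ANAPC4 had stood out, so their values there are given as a description without a test.

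Each in vitro embryo (Bos taurus) was bisected at the 2-cell stage, one cell was cultured alone and the other was snap-frozen. After 7 days of culture, frozen cells whose partners had shared an outcome were combined. The partner became a blastocyst in BL and did not divide again in 2CB. For 8CB the labels describe a stop of the partner at 4 cells. Each class had 3 independent pools of 15 blastomeres, and no class carried a treatment or an engineered allele. The sources used here give neither breed nor age of the donors. Both BL against 2CB and BL against 8CB were run on 6 arrays, 3 with BL in Cy5 and 3 with BL in Cy3. As each value is a ratio of pools, fewer contributing cells and less RNA per cell cannot be told apart.

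The anaphase-promoting complex is a ubiquitin ligase that marks cyclin B and securin for destruction, which lets sister chromatids separate and the cell leave mitosis. CDC20 activates it at the start of anaphase and FZR1, also called CDH1, from late mitosis into the next G1 phase. In mouse oocytes FZR1 also helps to hold the prophase arrest. While any kinetochore is unattached, the checkpoint proteins MAD2L1 and BUB1B bind CDC20 and keep the complex inactive. At the 2-cell stage the cattle embryo still relies mainly on messenger RNA stored in the oocyte.

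The deposited values are log ratios, taken as log2, and do not say which class is the numerator. They are therefore described by their positive or negative side, and no direction from BL to an arrested class is given. The 2 dye-swapped arrays of a replicate number were averaged as deposited, which assumes that they already run the same way. The correlation across probes of these pairs was 0.26, 0.49 and 0.05 in BL against 2CB (replicates 1 to 3) and -0.04, 0.56 and 0.11 in BL against 8CB. Pairs of arrays with BL in Cy5 correlated at a median of 0.45, pairs with BL in Cy3 at 0.32, and pairs across the orientations at 0.08 (from -0.55 to 0.56). The columns with BL in Cy5 held no value of more than 6 significant digits, whereas 98.7% to 99.2% of the values with BL in Cy3 did, so the 2 sets were written in different ways. The difference between orientations divided by 2, here called the orientation contrast (BL in Cy5 minus BL in Cy3), is given as a second value, and it equals the average after turning each sign by the dye of BL. It is a dye difference if the deposited values were already turned. It is BL over the arrested class if they are still Cy5 over Cy3. In that second case the class difference cancels in the averages as deposited, which then hold a dye difference. Which case applies was not tested, and this limit holds for every averaged value below.

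Over all probes, limma called 0 of 43793 at an adjusted p under 0.05 in either comparison and 0 in the difference between them. At an unadjusted p under 0.05 lay 16.6% of probes in BL against 2CB, 9.78% in BL against 8CB and 4.53% in the difference. A further fit entered the 12 arrays singly, with a dye term and the dye-swapped pair as a random block (pair block). It called 2492 and 798 probes in the comparisons with 2CB and 8CB, with its residual spread taken from single arrays. The values are ratios, so absence of a marker could not be judged. Of 10 oocyte markers, 7 reached an unadjusted p under 0.05 on the positive side in BL against 2CB (list from -0.47 to 0.98), against 1 of 12 cumulus and granulosa markers (-0.15 to 0.30) and 1 of 8 sperm markers (-0.40 to 0.13). In BL against 8CB these counts were 1, 1 and 0. Of all genes, 18% reached this p in BL against 2CB (8.54% on the positive side) and 11% in BL against 8CB. By the orientation contrast the counts were 1, 3 and 1 in BL against 2CB and 1, 0 and 1 in BL against 8CB. The shares of all genes by that contrast were 28.3% and 24.0%. The part of the oocyte transcripts in the values below was not tested.

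**Figure D1:**
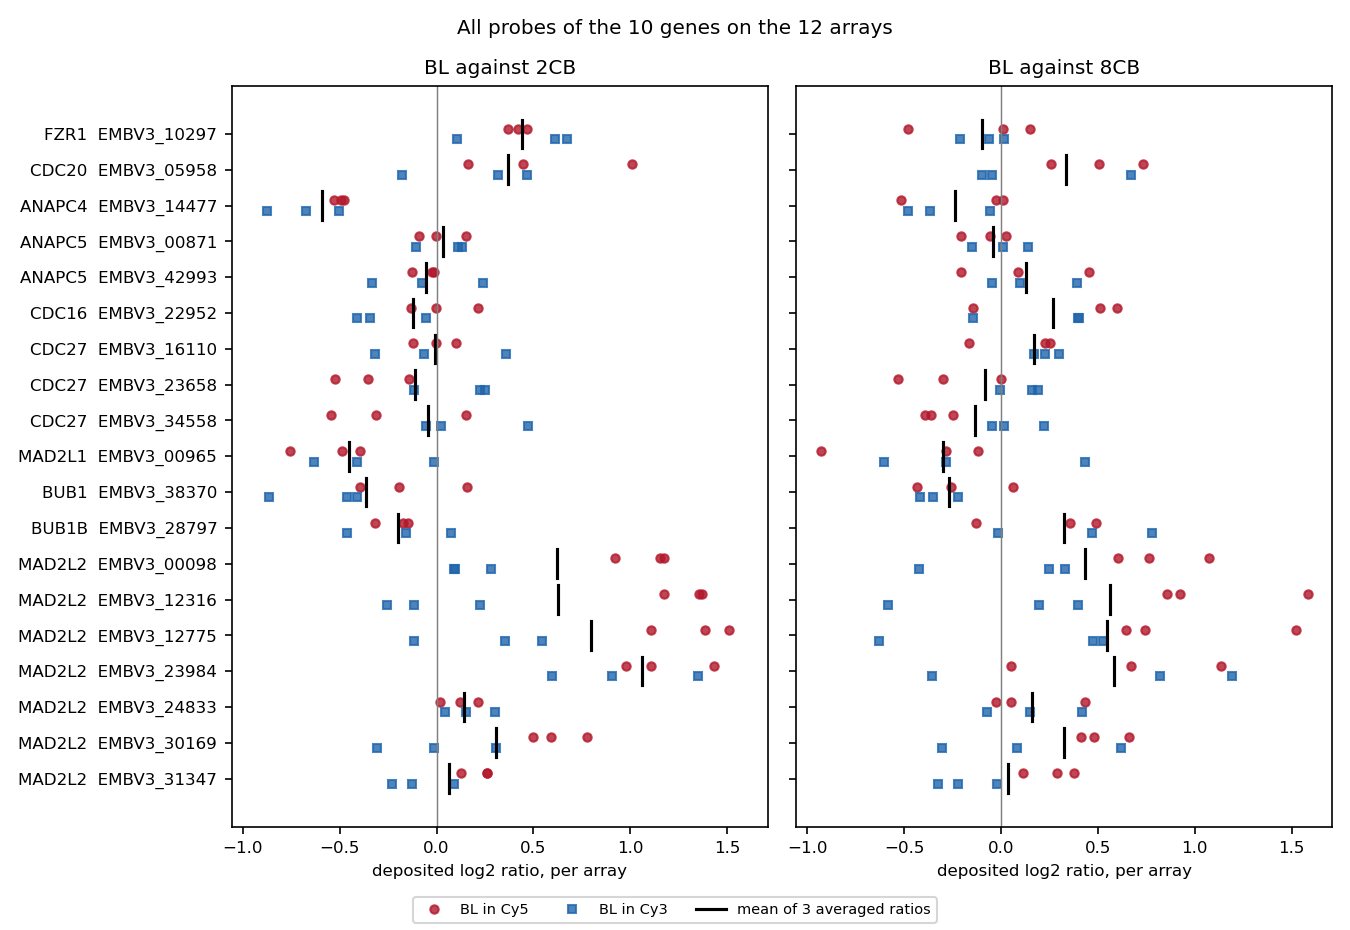
Deposited log2 ratio (x axis) of the 19 probes (y axis) on each array, for BL against 2CB (left) and BL against 8CB (right). Circles are arrays with BL in Cy5, squares arrays with BL in Cy3, and black bars the mean of 3 averaged ratios. FZR1, ANAPC4, MAD2L1 and 3 MAD2L2 probes kept one side on 6 of 6 arrays against 2CB, as did 12.7% of all probes. The orientations of 4 MAD2L2 probes did not overlap in either comparison. Of all probes, 34.9% against 2CB and 24.1% against 8CB did not overlap.

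FZR1 lay on the positive side in BL against 2CB and close to 0 in BL against 8CB. Against 2CB the arrays gave 0.67, 0.61 and 0.11 with BL in Cy3 and 0.47, 0.42 and 0.37 with BL in Cy5 (log2, replicates 1 to 3). All 6 were positive, and the orientations overlapped. The mean was 0.44 ± 0.08 (SE, n = 3), a 1.36-fold difference. Each SE given here and below is from limma, with a spread shared by both comparisons. Against 8CB the arrays gave -0.21, -0.06 and 0.01 with BL in Cy3 and 0.15, 0.01 and -0.48 with BL in Cy5. These lay on both sides of 0, with a mean of -0.10 ± 0.08 and averaged ratios of -0.03, -0.02 and -0.23. The orientation contrast was -0.02 ± 0.09 and -0.01 ± 0.09 in the comparisons with 2CB and 8CB, so the dye orientations of FZR1 differed by less than 1 SE.

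CDC20, the partner activator and the target of the checkpoint, had positive means in both comparisons but spread widely. Against 2CB it lay at 0.47, 0.31 and -0.18 with BL in Cy3 and at 1.01, 0.16 and 0.44 with BL in Cy5. The arrays with BL in Cy5 were all positive, while 1 with BL in Cy3 was negative, and the mean was 0.37 ± 0.12 (log2, SE, n = 3). Against 8CB the values were -0.10, -0.05 and 0.67 with BL in Cy3 and 0.51, 0.73 and 0.26 with BL in Cy5, with a mean of 0.34 ± 0.12. Its averaged ratios were positive in 3 of 3 replicates of each comparison, although 2 of 6 arrays against 8CB were slightly negative. Without replicate 1 the mean against 2CB was 0.19, and the orientation contrasts were 0.17 ± 0.12 and 0.16 ± 0.12 against 2CB and 8CB.

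ANAPC4, a subunit of the platform on which the complex is built, was the member with the lowest mean in BL against 2CB. Its arrays there gave -0.87, -0.67 and -0.50 with BL in Cy3 and -0.48, -0.49 and -0.53 with BL in Cy5. All 6 arrays were negative, and those with BL in Cy5 differed by less than 0.10 from each other. The mean was -0.59 ± 0.09 (log2, SE, n = 3), a 1.51-fold difference. Against 8CB the arrays gave -0.06, -0.48 and -0.37 with BL in Cy3 and -0.03, -0.52 and 0.01 with BL in Cy5. Replicate 2 was the lowest in both orientations, and the mean of -0.24 ± 0.09 became -0.11 without it. The orientation contrasts, 0.09 ± 0.06 and 0.06 ± 0.06 against 2CB and 8CB, were of the opposite sign and smaller (adjusted p = 0.33 and 0.54 in limma), so on the scale turned by dye ANAPC4 did not lie on the negative side.

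The other subunits stayed near 0 or were not on one side. ANAPC5, a further platform subunit, had 2 probes with means of 0.03 ± 0.06 and -0.05 ± 0.10 against 2CB and of -0.04 ± 0.06 and 0.13 ± 0.10 against 8CB (log2, SE, n = 3). These probes correlated at -0.12 over the 12 arrays, which share pools and dyes, so they did not vary together. CDC16, one of the subunits built of tetratricopeptide repeats, lay at -0.12 ± 0.13 against 2CB with averaged ratios of -0.09, -0.21 and -0.06. Against 8CB its averaged ratios were 0.50, -0.14 and 0.46, and the mean of 0.27 ± 0.13 became 0.48 without replicate 2, 0.16 without replicate 1 and 0.18 without replicate 3.

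CDC27, the repeat subunit that receives the activators, was measured by 3 probes with means from -0.11 to -0.01 against 2CB and from -0.13 to 0.17 against 8CB. Probes EMBV3_23658 and EMBV3_34558 correlated at 0.78 over the 12 arrays and were lower with BL in Cy5 than with BL in Cy3. For EMBV3_34558, the arrays against 8CB gave -0.05, 0.22 and 0.02 with BL in Cy3 and -0.36, -0.25 and -0.39 with BL in Cy5, which did not overlap. The orientation contrast of this probe was -0.19 ± 0.04 against 2CB (adjusted p = 0.046 in limma) and -0.20 ± 0.04 against 8CB (adjusted p = 0.053). For EMBV3_23658 these values were -0.23 ± 0.06 and -0.20 ± 0.06 (adjusted p = 0.055 and 0.093 in limma), and for EMBV3_16110 they were 0.00 ± 0.06 and -0.06 ± 0.06.

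MAD2L1, the checkpoint protein MAD2 that binds CDC20, was on the negative side against 2CB. It lay at -0.41, -0.63 and -0.01 with BL in Cy3 and at -0.75, -0.49 and -0.40 with BL in Cy5. All 6 arrays were negative, 1 of them barely, and the mean was -0.45 ± 0.16 (log2, SE, n = 3). A further probe, annotated only with the older symbol MAD2 and so not among the 19, had a mean of -0.49 ± 0.16 there. Against 8CB the MAD2L1 arrays gave 0.43, -0.60 and -0.28 with BL in Cy3 and -0.28, -0.93 and -0.12 with BL in Cy5. The mean of -0.30 ± 0.16 rested on replicate 2, without which it was -0.06, and the MAD2 probe moved alike, from -0.28 to -0.05. The orientation contrasts of MAD2L1 were -0.10 ± 0.09 and -0.15 ± 0.09 against 2CB and 8CB.

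BUB1 encodes the kinase that sits on kinetochores and gathers other checkpoint proteins there. Against 2CB its arrays gave -0.46, -0.41 and -0.86 with BL in Cy3 and -0.39, 0.16 and -0.20 with BL in Cy5. The orientations did not overlap, and the mean was -0.36 ± 0.09 (log2, SE, n = 3). Against 8CB they gave -0.35, -0.22 and -0.42 with BL in Cy3 and 0.06, -0.26 and -0.43 with BL in Cy5. The averaged ratios were negative in 3 of 3 replicates of both comparisons, with a mean of -0.27 ± 0.09 against 8CB. The orientation contrasts were positive, at 0.22 ± 0.07 and 0.06 ± 0.07 (adjusted p = 0.10 and 0.63 in limma).

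BUB1B encodes BUBR1, the part of the inhibitory complex that binds CDC20 beside MAD2L1. Its averaged ratios were -0.04, -0.39 and -0.17 against 2CB and 0.64, -0.07 and 0.41 against 8CB. The means lay on opposite sides, at -0.20 ± 0.14 and 0.33 ± 0.14 (log2, SE, n = 3), but replicate 2 against 8CB was negative in both orientations, at -0.02 and -0.13. The mean against 8CB was 0.17 without replicate 1 and 0.52 without replicate 2.

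MAD2L2, also called REV7 or MAD2B, is a relative of MAD2L1 that serves in translesion DNA synthesis and in the choice of double-strand break repair, and that has been described as an inhibitor of the anaphase-promoting complex with FZR1. It had the highest means of the group, yet its 7 probes disagreed with each other. Their means ran from 0.06 to 1.06 against 2CB and from 0.04 to 0.59 against 8CB. Their pairwise correlations over the 12 arrays ran from -0.35 to 0.98, with a median of 0.52 over 21 pairs. Which part of the transcript each probe reads is not analysed here.

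Probe EMBV3_23984 of MAD2L2 was the one that was high in both dye orientations. Against 2CB it lay at 0.90, 1.35 and 0.60 with BL in Cy3 and at 0.98, 1.10 and 1.43 with BL in Cy5. All 6 arrays were positive, the orientations overlapped, and the mean was 1.06 ± 0.22 (log2, SE, n = 3), a 2.09-fold difference. In size this mean was number 31 of 43793 probes, and the orientation contrast was number 17050. The first rank is only a description, since the genes were selected on these means and this was the highest probe of the gene. Against 8CB the probe lay at -0.36, 0.82 and 1.19 with BL in Cy3 and at 0.05, 1.14 and 0.67 with BL in Cy5. Replicate 1 stood below the other replicates in both orientations, and the mean of 0.59 ± 0.22 became 0.96 without it and 0.39 without replicate 2. The SE is the same in both comparisons because their spread is shared. The SD of the averaged ratios was 0.15 against 2CB and 0.64 against 8CB.

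Probes EMBV3_12316, EMBV3_12775 and EMBV3_00098 of MAD2L2 were high with BL in Cy5. They were lower with BL in Cy3, where single arrays ran from -0.63 to 0.55. EMBV3_12316 lay at 1.35, 1.17 and 1.37 with BL in Cy5 and at -0.12, 0.22 and -0.26 with BL in Cy3 against 2CB, and at 0.92, 1.58 and 0.85 and -0.58, 0.40 and 0.20 against 8CB. The orientations were apart in both comparisons, with means of 1.30 ± 0.11 and -0.05 ± 0.25 (SD, n = 3) against 2CB. The orientation contrast was 0.67 ± 0.09 against 2CB and 0.56 ± 0.09 against 8CB (SE, n = 3; adjusted p = 0.013 and 0.027 in limma). EMBV3_00098 lay at 1.15, 0.92 and 1.18 with BL in Cy5 and at 0.10, 0.28 and 0.09 with BL in Cy3 against 2CB, and at 0.60, 1.07 and 0.76 and -0.42, 0.33 and 0.25 against 8CB. Its orientations were apart as well, with a contrast of 0.46 ± 0.06 and 0.38 ± 0.06 (adjusted p = 0.014 and 0.029). EMBV3_12775 lay at 1.39, 1.10 and 1.51 with BL in Cy5 and at 0.35, 0.55 and -0.12 with BL in Cy3 against 2CB, and at 0.65, 1.52 and 0.75 and -0.63, 0.48 and 0.53 against 8CB. Its contrast was 0.54 ± 0.12 and 0.42 ± 0.12 (adjusted p = 0.046 and 0.096). The means on the averaged scale of these probes, from 0.62 to 0.80 against 2CB and from 0.43 to 0.56 against 8CB, thus combined a high and a low orientation. Replicate 2 was the highest of the averaged ratios of all 3 probes against 8CB, and without it the means there were 0.30 to 0.35. These 3 probes correlated with each other at 0.96 to 0.98 over the 12 arrays, but with EMBV3_23984 at 0.47 to 0.69.

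Probe EMBV3_30169 was milder, with an orientation contrast of 0.31 ± 0.11 against 2CB and 0.19 ± 0.11 against 8CB (adjusted p = 0.12 and 0.32 in limma). EMBV3_24833 and EMBV3_31347 stayed near 0 on the averaged scale, at 0.14 ± 0.08 and 0.06 ± 0.05 against 2CB and at 0.16 ± 0.08 and 0.04 ± 0.05 against 8CB. EMBV3_31347 was nevertheless apart between orientations in both comparisons, with orientation contrasts of 0.15 ± 0.06 and 0.22 ± 0.06 (adjusted p = 0.16 and 0.085). Only EMBV3_23984 and EMBV3_24833 of the 7 had orientation contrasts within 1 SE of 0 in both comparisons.

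**Figure D2:**
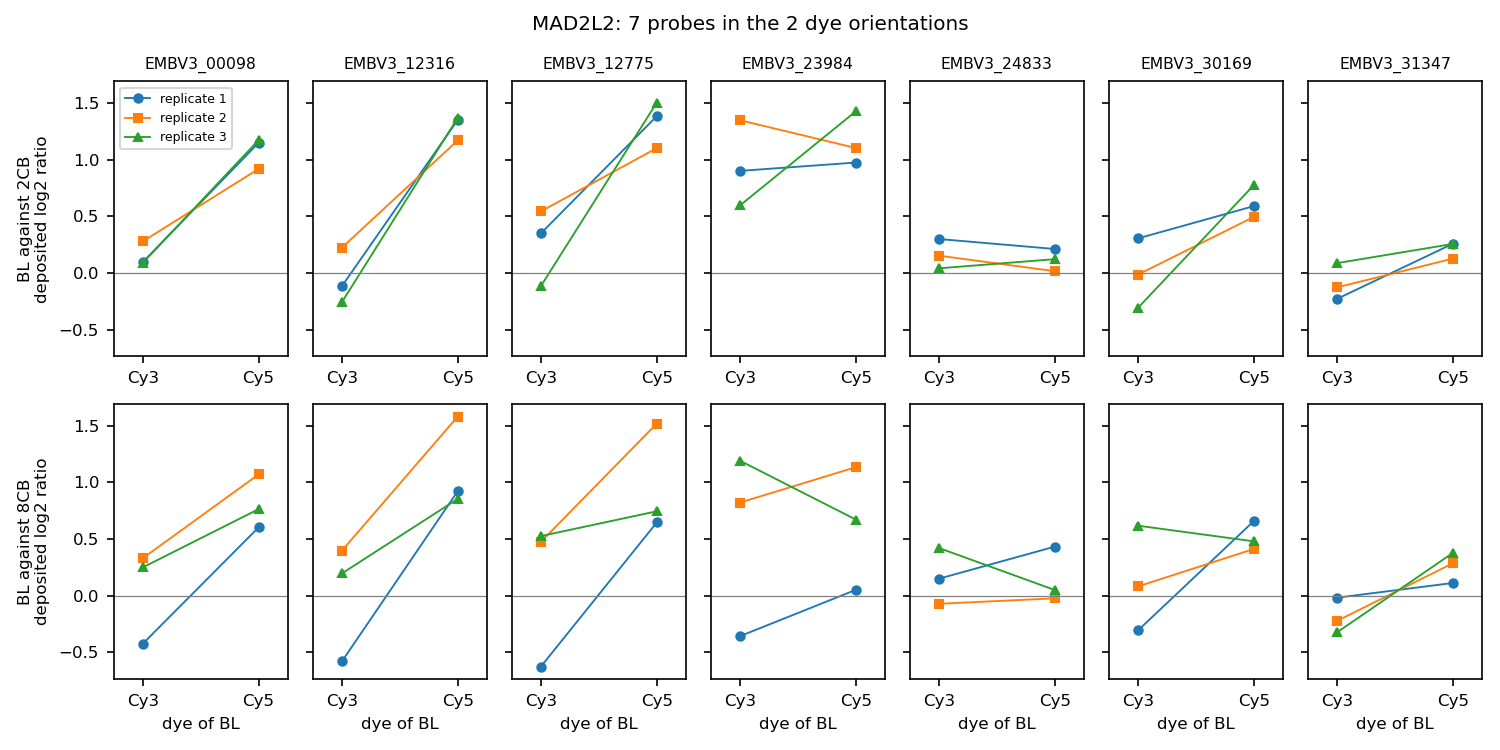
Deposited log2 ratio (y axis) of the 7 MAD2L2 probes (panels from left to right) by the dye that carried BL (x axis), for BL against 2CB (top) and BL against 8CB (bottom). Each line joins the dye-swapped arrays of 1 replicate number. For EMBV3_12316, the 3 lines against 2CB rise from between -0.26 and 0.22 with BL in Cy3 to between 1.17 and 1.37 with BL in Cy5, whereas EMBV3_23984 was high in both dyes there.

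Counted over the group, the dye orientations did not overlap for 7 of 19 probes against 2CB, where 34.9% of all probes did not, and for 5 of 19 against 8CB, where 24.1% did not. The orientation contrast was called at an adjusted p under 0.05 in limma for 4 of 19 probes against 2CB (3 of MAD2L2 and 1 of CDC27) and for 2 of 19 against 8CB (both MAD2L2). Of all probes, 8.13% and 4.63% were called by this measure. Probes of 1 gene are not independent, and MAD2L2 supplied most of these counts.

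On the averaged scale 0 of 19 probes were called at an adjusted p under 0.05 in either comparison, as for 0% of all probes. One side was kept on 6 of 6 arrays against 2CB by 6 of 19 probes (FZR1, ANAPC4, MAD2L1 and 3 of MAD2L2), where 12.7% of all probes did so, and by 0 of 19 against 8CB, where 5.85% did so. An unadjusted p under 0.05 in limma was reached against 8CB by 8 of 19 probes, beside the 9.78% over all probes, and these were CDC20, ANAPC4, BUB1 and 5 probes of MAD2L2. Their adjusted p-values lay between 0.28 and 0.47, with the spread shared by both comparisons. Both comparisons share the BL class, so this count is not independent of the selection, and the 5 probes of MAD2L2 are not independent of each other. Nothing is read from its distance to the share over all probes. With the 12 arrays entered singly and the pair block, 6 of 19 probes had an adjusted p under 0.05 against 2CB (5.69% of all probes). These were ANAPC4, FZR1 and 4 of MAD2L2. Against 8CB 0 of 19 did (1.82%). The genes were selected on the BL against 2CB means that this fit and the 6-of-6 count also use, so both counts against 2CB are descriptions and nothing is read from them or from their distance to the shares over all probes.

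**Figure D3:**
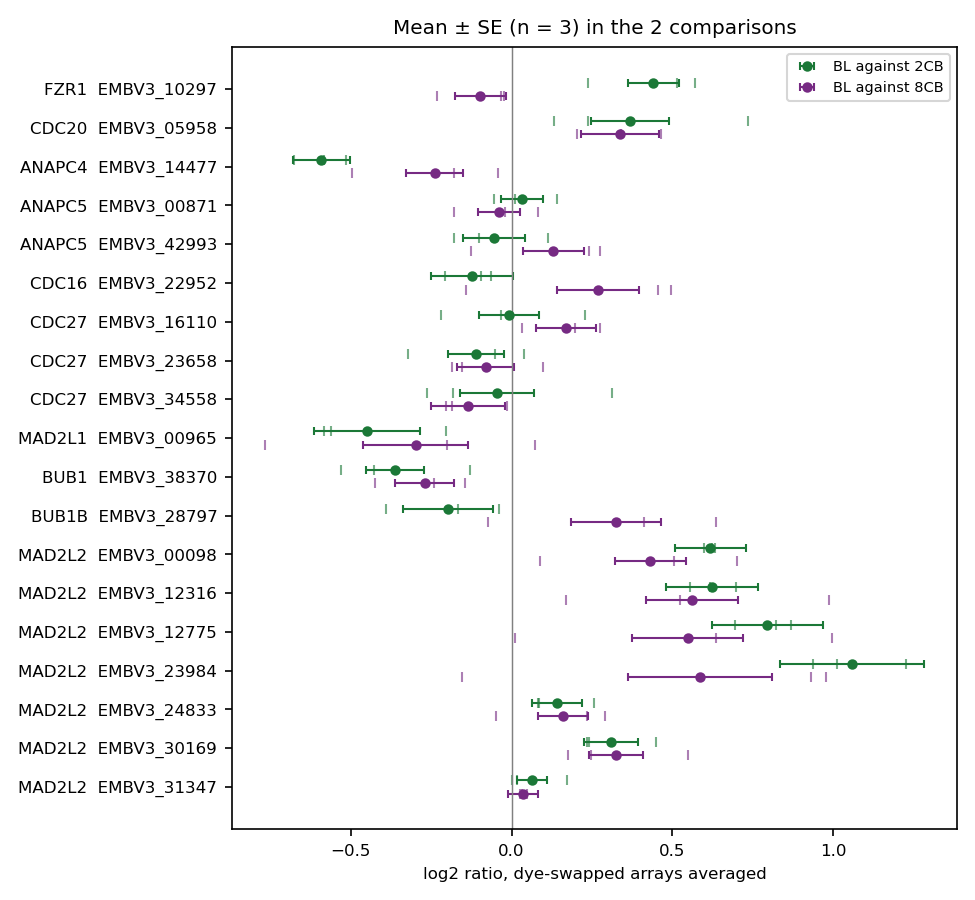
Mean log2 ratio of 3 averaged ratios (x axis) of the 19 probes (y axis) in BL against 2CB (green) and BL against 8CB (purple). Error bars are the SE from limma, with a spread shared by both comparisons, and ticks are the averaged ratios. FZR1 lay at 0.44 against 2CB and at -0.10 against 8CB, while BUB1 lay at -0.36 and -0.27.

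The comparisons were set against each other as the ratio to 2CB minus the ratio to 8CB, with the BL class shared by both. FZR1 had the largest positive difference of the group, at 0.54 ± 0.11 (log2, SE, n = 3), with all 3 averaged ratios positive against 2CB and all 3 negative against 8CB. BUB1B had the largest negative one, at -0.52 ± 0.20, followed by CDC16 at -0.39 ± 0.18 and ANAPC4 at -0.35 ± 0.13. All 19 probes had adjusted p-values of 0.939 or higher in limma without pairing the replicates, so no difference passed. The difference contains the ratio to 2CB on which the genes were selected, so the sizes for FZR1 and ANAPC4 are not independent of that choice. With the replicate number as a fixed block, which takes equal numbers of the comparisons as pairs, the differences were the same. The SEs of FZR1, BUB1B, CDC16 and ANAPC4 were then 0.058, 0.090, 0.125 and 0.121. Their adjusted p-values in limma were 0.41, 0.41, 0.48 and 0.50. With 12 arrays and the pair block, which does not pair replicates across comparisons, FZR1 had an adjusted p of 0.48 in limma. The differences of MAD2L1 and BUB1, at -0.15 ± 0.23 and -0.09 ± 0.13, and of CDC20, at 0.03 ± 0.17, were within 1 SE of 0.

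Further genes of the pathway were taken as the mean of the probes of a gene, which for MAD2L1 includes the MAD2 probe. Of 13 other subunits of the complex and its ubiquitin-conjugating partners, 11 were measured. Against 8CB 1 of them had an unadjusted p under 0.05, on the negative side, and against 2CB 1 on each side. Over all genes, these shares were 11% against 8CB (5.61% positive, 5.41% negative) and 18% against 2CB (8.54% positive, 9.48% negative). The smallest p-values against 8CB belonged to the small subunit ANAPC13 at -0.22 ± 0.06 (log2, SE, n = 3), the substrate-binding subunit ANAPC10 at 0.15 ± 0.06 and the scaffold ANAPC1 at 0.15 ± 0.07. Against 2CB these lay at -0.14 ± 0.06, -0.04 ± 0.06 and 0.04 ± 0.07. The list's median was 0.06 against 8CB and 0.04 against 2CB, and that of all genes 0.004 and 0.01.

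Of 5 inhibitors and checkpoint silencers, all measured, 1 reached an unadjusted p under 0.05 against 8CB and 3 did against 2CB (2 positive, 1 negative). FBXO5, or EMI1, which blocks the complex outside mitosis, lay at 0.41 ± 0.09 against 8CB and 0.47 ± 0.09 against 2CB. FBXO43, or EMI2, which keeps vertebrate eggs in metaphase II, lay at -0.13 ± 0.10 against 8CB and -0.41 ± 0.10 against 2CB. USP44, a deubiquitinase acting on CDC20, lay at -0.17 ± 0.18 and -0.16 ± 0.18. The adjusted p of FBXO5 was 0.22 and 0.12 in limma, and the list's medians were -0.05 against 8CB and -0.16 against 2CB.

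Of 15 other checkpoint genes 12 were measured, and 3 reached an unadjusted p under 0.05 against 8CB (1 positive, 2 negative) and 2 against 2CB (1 on each side). The kinetochore protein ZW10 lay at -0.49 ± 0.11 against 8CB and BUB3, which holds BUB1 and BUB1B on kinetochores, at -0.20 ± 0.05. The corresponding values against 2CB were -0.01 ± 0.11 and -0.06 ± 0.05. Aurora B, AURKB, which corrects faulty attachments, lay at 0.28 ± 0.11 against 8CB and 0.38 ± 0.11 against 2CB. The list's medians were 0.02 against 8CB and -0.05 against 2CB.

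Of 20 substrates of the complex, all measured, 5 reached an unadjusted p under 0.05 against 8CB (4 positive, 1 negative) and 3 against 2CB (all positive). Cyclin B1, CCNB1, was the negative one, at -0.47 ± 0.08 against 8CB and -0.14 ± 0.08 against 2CB. The spindle motor KIF11 measured 0.28 ± 0.06 against 8CB but -0.02 ± 0.06 against 2CB. For the centrosomal kinase NEK2 these ratios were 0.25 ± 0.07 and 0.38 ± 0.07. No gene of these lists passed an adjusted p of 0.05 on the averaged scale. By the orientation contrast, 3 of the 48 genes measured were called against 2CB and 2 against 8CB, beside 5.96% and 2.94% of all genes. These were UBE2S, an E2 enzyme that extends ubiquitin chains (0.27 ± 0.05 against 2CB, 0.26 ± 0.05 against 8CB), CCNA2, cyclin A2 (0.37 ± 0.05 and 0.26 ± 0.05), and, against 2CB, MAD1L1, which holds MAD2L1 at kinetochores (0.29 ± 0.05), all named after their values were seen.

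**Figure D4:**
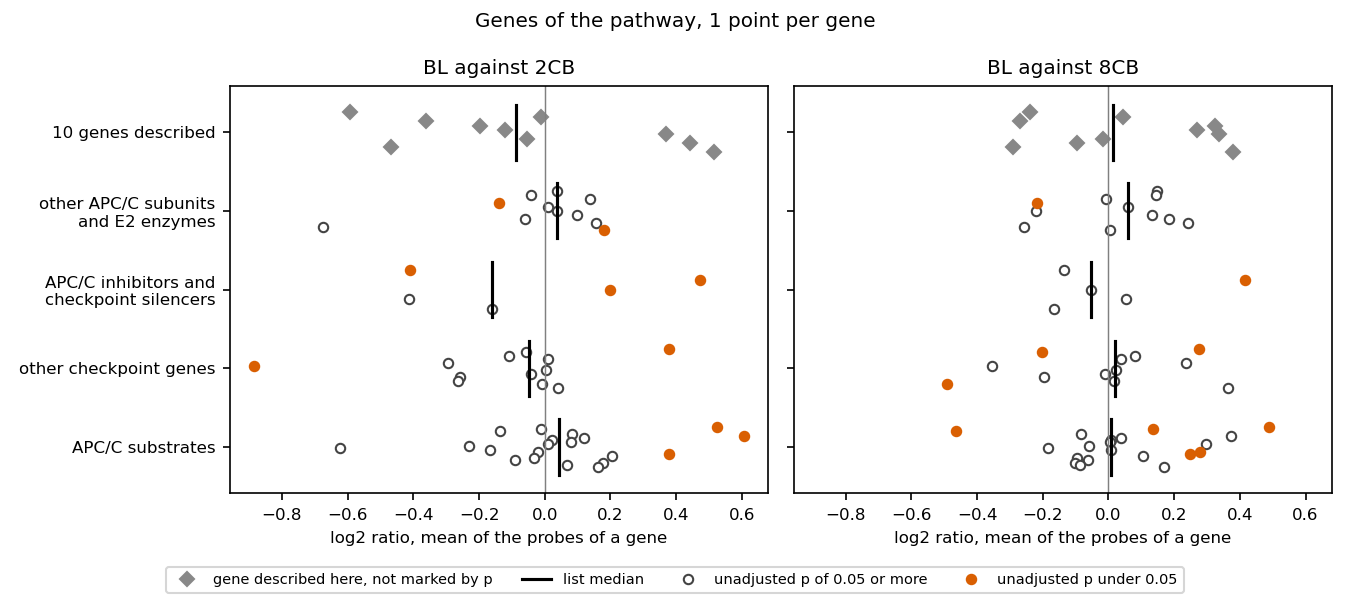
Log2 ratio per gene, as the mean of its probes (x axis), in 5 groups of genes (y axis) for BL against 2CB (left) and BL against 8CB (right). Diamonds are the 10 genes described, filled circles other genes with an unadjusted p under 0.05, open circles the rest, and black bars medians. List medians lie between -0.16 and 0.06.

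Likeness across the 12 arrays was sought among probes of other named genes, keeping the closest probe of each gene. For MAD2L2 this was done for EMBV3_00098, its probe with the smallest p in limma in BL against 2CB, the comparison used for selection. The probes of other genes most like it were those of ECE2, MAP2K7 and HDHD3, with Pearson correlations of 0.993, 0.986 and 0.978. For FZR1 they were GEMIN8 (0.938), CTNS (0.918) and LPIN3 (0.917), and for ANAPC4 they were CHN1 (0.922), DYNC1I2 (0.903) and C1H21ORF59 (0.901). The 12 arrays share pools and dyes, so these values describe likeness over arrays and not over independent embryos. They are the highest found in a search of 21790 probes with a symbol, and how high unrelated probes reach was not tested. EMBV3_00098 was apart between orientations in both comparisons, and the part of this split in its correlations was not tested.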

How the data were processed

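Two-colour arrays of the bovine EmbryoGENE probe set held 1 pool per dye, on 12 arrays. The deposited values are log ratios of the authors, 1 for each probe on each array, used here as log2. The submitters' processing notes name limma but no version, and the sources used here do not give background correction, normalization or filters. Column medians lay between -0.003 and 0.010, so the columns were centred. No scanner intensities were used, so background and depth could not be judged, and precision is limited by how many arrays there are. Rows with a missing value (1) or outside the numbered probes (1) were left out.

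Dye-swapped arrays of a replicate number were averaged as deposited (6 ratios, 3 per comparison) and fitted over all 43793 probes in R 4.3.3 with limma 3.58.1 (lmFit, eBayes), using a coefficient for each comparison, a shared spread and Benjamini-Hochberg adjustment. P-values are two-sided and measure the spread between these pools. The fit was run on simulated ratios with independent noise. These ratios held neither the shared BL class nor dye orientations, so the run checks the code and not the error rate in these data. Symbols came from the platform annotation, and 1524 older ones were brought up to date through RefSeq names (ARS-UCD2.0); members were matched on the annotated symbol as it stood. Deviations from the comparison means correlated between comparisons at 0.30, 0.39 and 0.35 for replicates 1 to 3. The fixed replicate block takes equal numbers as pairs across comparisons. Unequal numbers were not correlated, so whether a number stands for the same BL pool in both comparisons was not tested. The members and gene lists were chosen with earlier results of these data known. All member probes are given; of each other list the 3 genes with the smallest p against 8CB are named. Alternatives were the replicate block, the sign turned by dye, each orientation, separate fits, centring, quantile normalization, gene means, another threshold and each replicate left out. Figures used matplotlib 3.10.9.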

Additional observations from a re-analysis of the deposited data

Results flagged for a closer look

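The orientation contrast (BL in Cy5 minus BL in Cy3, divided by 2) passed an adjusted p of 0.05 in limma for 3 MAD2L2 probes and 1 CDC27 probe. The same comparison thus gave different values with BL in Cy5 and with BL in Cy3. Of all probes, 8.13% against 2CB and 4.63% against 8CB passed as well. The 3 MAD2L2 probes correlated with each other at 0.96 to 0.98, so they are not independent. For MAD2L2 the values were 0.67 (EMBV3_12316), 0.54 (EMBV3_12775) and 0.46 (EMBV3_00098) against 2CB, and 0.56 (EMBV3_12316) and 0.38 (EMBV3_00098) against 8CB, each higher with BL in Cy5 in 3 of 3 replicates. For CDC27 (EMBV3_34558) it was -0.19 against 2CB, lower with BL in Cy5 in 3 of 3 replicates. Whether this is a dye difference or the difference between classes depends on how the deposited ratios were turned, which was not tested.

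FZR1 had all 3 averaged ratios on the positive side against 2CB and all 3 on the negative side against 8CB, a difference of 0.54 (log2). The test of that difference did not pass (adjusted p = 0.94 in limma), and single arrays against 8CB lay on both sides. FZR1 was selected on the ratio to 2CB, which is part of this difference, so its size is not independent of that choice. Groups of 3 arrays were too small to look for single outlying samples.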

How the results depend on the processing

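The main counts of calls were 0 for BL against 2CB, BL against 8CB and their difference. BL against 2CB and BL against 8CB gave, in that order, 2492 and 798 calls with 12 arrays, a dye term and the pair block. With signs turned by dye these were 3562 and 2028. With probes of a gene averaged as well (added after seeing the data), they were 907 and 447. With BL in Cy5 only the calls were 4220 and 1407, and at an adjusted p under 0.10 they were 336 and 92. The cause of these shifts was not tested. The difference between comparisons stayed at 0 calls under every alternative run, the fixed replicate block included. Leaving out each replicate gave 0 calls in all 3 results, and centring, quantile normalization, separate fits, gene means and BL in Cy3 only gave 0 calls for both comparisons. Of 38 member values (19 probes in 2 comparisons), the sign changed for 14 when turned by dye, for 8 with BL in Cy3 only, for 1 with BL in Cy5 only and for 3, 1 and 3 without replicates 1, 2 and 3. Without intensities, dim probes could not be told from bright ones.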
